A study of Mus musculus with 6 samples.

Results

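The genes described here are 31 markers of red cell precursors, of granulocytes (neutrophils and their precursors) and of B lineage cells. They were chosen by name, with earlier results of these data known. Of the 31, 30 have an entry among the 23358 genes of the deposited table: 9 erythroid, 13 granulocyte and 8 B lineage genes. Sptb was found under its older name Spnb1, and no level of Ahsp, the alpha globin chaperone, was analysed here. The study sequenced RNA of mouse calvaria, the bony roof of the skull, in 6 libraries. The animals were 2 to 3 days old, and 3 libraries are labelled as wild type (WT) and 3 as a conditional knockout of Ezh2 (cKO). Ezh2 is the catalytic subunit of the chromatin repressor complex PRC2. The term Osx, short for osterix (now Sp7, a factor that osteoblast precursors depend on), stands in the labels of both groups. The labels give neither the Cre construct nor the deleted part of Ezh2, and neither sex nor litter. Each library is called by its group and its labelled number, which gives WT 14, WT 27, WT 29, cKO 8, cKO 10 and cKO 37. Bones of both groups were treated for 20 minutes with collagenase at 2 mg/ml and trypsin at 0.005%, then washed and frozen, and whether cells released by this step were kept is not said.

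Marrow makes red cells, granulocytes and B cells from shared progenitors. Red cell precursors fill themselves with globin and heme and build a spectrin skeleton under the membrane, granulocyte precursors pack enzymes and antimicrobial proteins into granules, and early B cells cut and join their immunoglobulin genes with the RAG recombinase. In newborn mice liver and spleen still share this work, and bone marrow is being colonised.

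Gene counts summed to between 60449016 and 95439578 per library. All counts are even, so each counted fragment was taken to add 2, and the fragments given below are counts divided by 2. A level is given as counts scaled to library size with TMM factors (CPM), or, where genes are set against each other, as the deposited RPKM, which is per length. A floor of 3 fragments corresponds to 0.0652 to 0.1 CPM, depending on the library. Nothing in the labels ties the libraries to separate animals, and the p-values therefore reflect only how far these libraries differ, which may be technical. Intervals from counts cover counting error only.

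Most of these genes were scarce in calvaria. Of the 30 genes, 3 reached a mean of 1 RPKM, 16 stayed under 0.1 RPKM, and Ms4a3 was at 0 in every library. The median of the 30 means was 0.0748 RPKM, against 1.09 RPKM over all genes. These figures include the alpha globin entries Hba-a1 (0.0268 RPKM) and Hba-a2 (0.104 RPKM), which overlap each other and cannot be read as levels. The highest were Tfrc (13.8 RPKM), Ebf1 (7.68 RPKM) and Alas2 (2.3 RPKM), followed by S100a9 (0.878 RPKM) and S100a8 (0.778 RPKM). Tfrc, the transferrin receptor, takes up iron in most dividing cells, and Ebf1 is also used by stromal and fat cell precursors, so neither defines a blood lineage. Transcription factors of the lineages were uneven. Gata1 of red cell precursors (6 fragments over the 6 libraries), Pax5 of B cells (6) and Cebpe of granulocytes (3) were near 0. Others on the lineage lists were higher per length, with Zfpm1 at 4.54, Tal1 at 0.866, Gfi1 at 0.499, Nfe2 at 0.251 and Spib at 0.133 RPKM. Below these stood the erythroid factors Klf1 at 0.0902 and Gfi1b at 0.0203 RPKM. Which cells these transcripts came from was not tested. Hbb-bs, a beta globin gene outside the 30, stood at 43.2 RPKM. These levels do not settle how much marrow the samples held, and the genes are called erythroid, granulocyte and B lineage marker genes below.

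**Figure D1:**
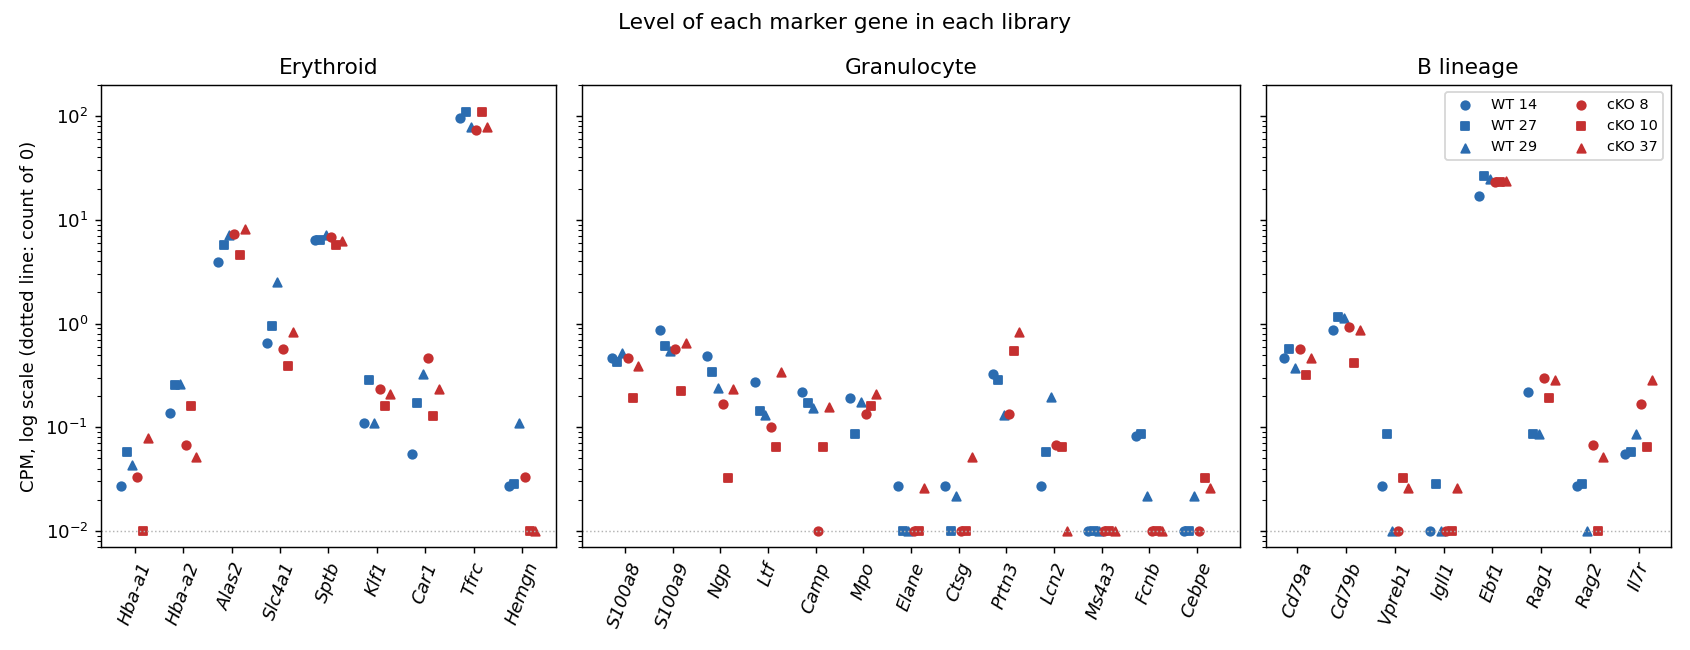
Level of each of the 30 marker genes in each library, in CPM on a log axis; circles, squares and triangles are single libraries, blue for WT and red for cKO, and points on the dotted line are counts of 0. Tfrc, Ebf1, Alas2 and Sptb lie above 3 CPM in every library, while most other genes lie under 1 CPM.

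Between cKO and WT, 18 of the 30 genes had enough counts to be tested, and 0 of the 18 passed an adjusted p of 0.05 in the edgeR quasi-likelihood test (Benjamini-Hochberg over 16089 genes). Over all 16089 tested genes, 1997 passed, or 12.4%, with 5.96% higher and 6.45% lower in cKO. At an unadjusted p under 0.05 there were 2 of the 18, Hba-a2 and Ngp, against 29.1% of all tested genes. DESeq2 called 0 of the 7 members for which it gave an adjusted p, and limma voom 0 of 18. At an unadjusted p under 0.05 limma voom had 4 of its 18 members (Camp, Hba-a2, Ngp and Rag1). DESeq2 had 2 (Fcnb and Slc4a1), counted over every member with an unadjusted p. Fcnb is not among the 7 with an adjusted p. The share of all genes under this threshold was not taken for DESeq2 or limma voom. The median log2 fold change of the 18 was -0.072, against 0.0074 over all tested genes, and 7 of the 18 were above 0. With no overlap between the groups there was 1 of 18, Ngp, against 34.6% of all tested genes. The 18 passed the filter on low counts, so they do not stand for all 30.

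**Figure D2:**
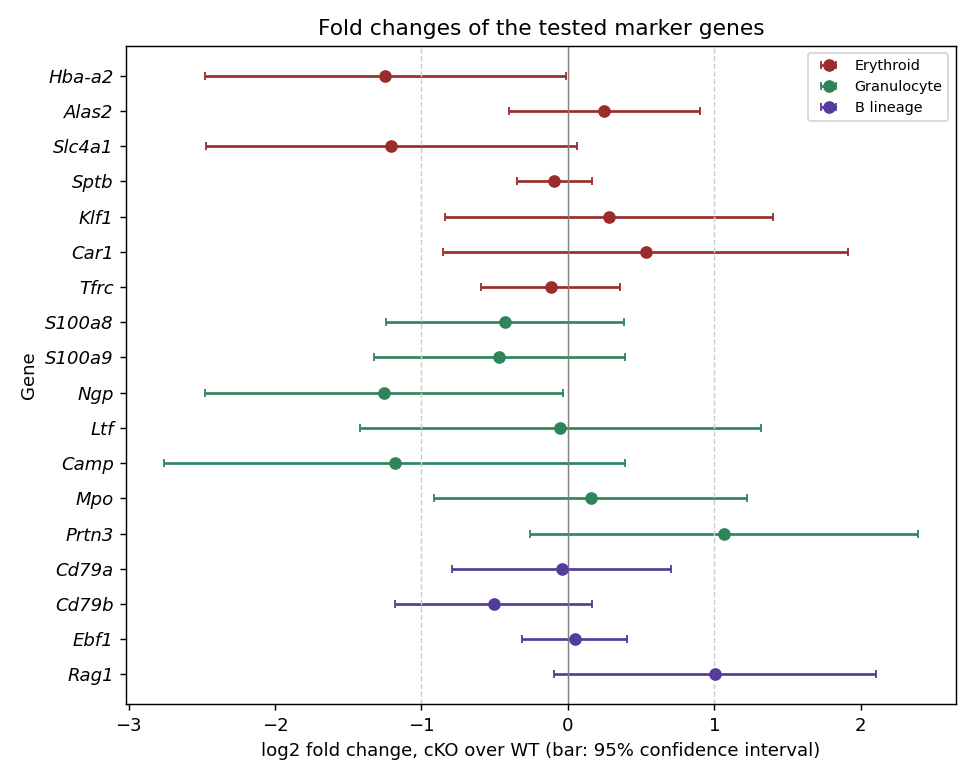
Fold change of cKO over WT for the 18 tested marker genes on a log2 axis, with the 95% confidence interval of the edgeR fit as bars; dashed lines mark a 2-fold change either way. The intervals of 5 genes lie within the dashed lines, and those of the other 13 reach past one of them.

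The precision of these comparisons differed widely. Standard errors on the log2 scale ran from 0.117 for Sptb to 0.718 for Camp. For 5 genes (Alas2, Sptb, Tfrc, Cd79a and Ebf1) the 95% interval lay within a 2-fold change either way. For the other 13 a 2-fold change on at least one side lay inside the interval, so a change of that size was not excluded.

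Alpha globin could not be read from its 2 genes. The table's entries for Hba-a1 (mm10, chromosome 11, 32283672 to 32297303, plus strand) and Hba-a2 (32283675 to 32297310) each span both copies and overlap each other, so reads in the shared span have no single entry. The coding sequences, 429 bases each, differ at 1 base, and the longest run without a difference is 380 bases. This base is C381T, with the base of Hba-a1 first and positions counted from the A of the start codon. The stretch of bases 301 to 390 is shown because it holds the 1 coding base that differs between the copies, in capitals (untranslated parts were not compared), from mouse reference transcripts (GENCODE vM21, GRCm38):
Hba-a1: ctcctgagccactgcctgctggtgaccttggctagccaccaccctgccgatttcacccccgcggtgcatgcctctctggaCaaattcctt
Hba-a2: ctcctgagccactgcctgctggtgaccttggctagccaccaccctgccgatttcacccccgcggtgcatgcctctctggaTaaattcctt

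Hba-a1 had 1, 2 and 2 fragments in the WT libraries, in the order named above, and 1, 0 and 3 in the cKO libraries. Hba-a2 had 5, 9 and 12 fragments in WT and 2, 5 and 2 in cKO. The groups met at 5 fragments, and in CPM cKO 10 (0.161) stood above WT 14 (0.137). The log2 fold change of Hba-a2 was -1.25 ± 0.56 (SE, edgeR adjusted p = 0.168), and it has to be read with the overlap of the 2 entries.

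Beta globin is described first by its best-counted entry. Hbb-bs, listed under the older name Beta-s (chromosome 7, 103826523 to 103827928), overlaps no other entry of the table, and it was chosen after its values were seen. It is nearly identical to Hbb-bt, which has no entry of its own that could be matched: their coding sequences of 444 bases differ at C417T alone (Hbb-bs first). Bases 331 to 420 are shown because they hold that coding base:
Hbb-bs: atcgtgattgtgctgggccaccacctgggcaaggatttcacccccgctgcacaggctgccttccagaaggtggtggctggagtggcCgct
Hbb-bt: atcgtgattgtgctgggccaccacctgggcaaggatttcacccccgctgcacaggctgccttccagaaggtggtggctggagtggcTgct

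Hbb-bs measured 22.7, 40.4 and 37.4 CPM in WT and 43, 29.8 and 48.5 CPM in cKO. WT 14 was lowest and cKO 37 highest, and the groups overlapped (log2 fold change 0.27 ± 0.30, edgeR adjusted p = 0.617). Its mean of 43.2 RPKM was the highest of the 40 further erythroid genes read from a second list. How many reads of Hbb-bt it holds was not tested. The entries Hbb-b1 and Hbb-b2 also carry beta globin names. Hbb-b1 had 6, 2 and 1 fragments in WT and 18, 5 and 7 in cKO, and in CPM the groups overlapped. Its log2 fold change was 1.96 ± 0.74 (edgeR unadjusted p = 0.024, adjusted p = 0.11). Hbb-b2 had 5 fragments in all and was not tested. How beta globin reads were split over these entries was not tested.

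Alas2 (chromosome X, 150547417 to 150570622), the erythroid form of the first enzyme of heme synthesis, had the highest RPKM of the erythroid members after Tfrc. It measured 3.91, 5.78 and 7.07 CPM in WT and 7.24, 4.55 and 8.14 CPM in cKO, in the same order. WT 14 and cKO 10 were the lowest libraries and cKO 37 the highest, as for Hbb-bs, and the groups overlapped. Means were 5.59 ± 1.59 and 6.64 ± 1.87 CPM (SD, n = 3 per group), a log2 fold change of 0.25 ± 0.28 with a 95% interval of -0.41 to 0.90 (edgeR adjusted p = 0.604). Leaving out 1 library moved it between 0.048 and 0.46. Part of the Alas2 transcript, 311 of 2403 exon bases, lies over exons of Apex2 on the opposite strand, and the use of strand in counting is not given.

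Sequence upstream of the genes was read from RefSeq promoters (GRCm38.p6), which 26 of the 31 listed genes have, over 250 bases before the start and on both strands. AGATAA, a form of the GATA factor motif, was found upstream of 1 of 7 erythroid genes, Alas2, and in 10% of all 32851 promoters. Other forms of that motif were not searched. CACCC, a motif of the KLF family, was upstream of 6 of 7, against 52.0% of all promoters. The longer CCACACCC, which contains it, was upstream of 0 of 7, against 3.2%. The 120 bases before the Alas2 start (chrX:150547297-150547416, plus strand) are shown because Alas2 is the only one of them with an AGATAA match and is well counted. Capitals mark matches of AGATAA and of CACCC, all on the opposite strand:
Alas2: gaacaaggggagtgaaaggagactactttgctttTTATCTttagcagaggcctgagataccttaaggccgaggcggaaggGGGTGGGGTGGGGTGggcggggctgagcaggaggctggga

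Tfrc (chromosome 16, 32608896 to 32632794) measured 95.3, 109 and 78.7 CPM in WT and 73.5, 109 and 77.9 CPM in cKO. WT 27 and cKO 10 were both highest, so the groups overlapped over nearly their whole range (log2 fold change -0.12 ± 0.19, 95% interval -0.60 to 0.36, edgeR adjusted p = 0.739). Its order of libraries was not that of Alas2: cKO 10, second lowest for Alas2, was highest for Tfrc.

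The membrane skeleton was represented by Sptb, erythroid beta spectrin, and Slc4a1, the band 3 anion exchanger that anchors it. Sptb (chromosome 12, 76580488 to 76710547), which is also made in muscle and brain, measured 6.37, 6.41 and 7.22 CPM in WT and 6.91, 5.67 and 6.19 CPM in cKO. It was the most even member, with a log2 fold change of -0.093 ± 0.12 (edgeR adjusted p = 0.642). Slc4a1 (chromosome 11, 102348820 to 102365281) measured 0.656, 0.945 and 2.52 CPM in WT and 0.567, 0.387 and 0.832 CPM in cKO. WT 29 stood alone at the top, and cKO 37 lay above WT 14. The log2 fold change was -1.21 ± 0.54 (edgeR adjusted p = 0.191, DESeq2 adjusted p = 0.0532), and without WT 29 it was -0.41 (edgeR adjusted p = 0.555).

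WT 29 was also highest in Epb42 and Trim10, a pair of erythroid genes chosen after their values were seen. Epb42, protein 4.2 of the band 3 complex, had 20 fragments in WT 29 and 2 to 10 in the other libraries, and the erythroblast gene Trim10 had 20 against 4 to 7. WT 29 is the deepest library, but it led in CPM as well, with Trim10 at 2.13 and Epb42 at 1.94 times the mean of the 6 libraries. Hbb-bs and Alas2, at 1.01 and 1.16 times their means, did not stand out in WT 29. Neither gene passed the test between the groups (edgeR adjusted p = 0.567 for Trim10 and 0.929 for Epb42). In bulk tissue, fewer cells of a type and less RNA per cell cannot be told apart.

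**Figure D3:**
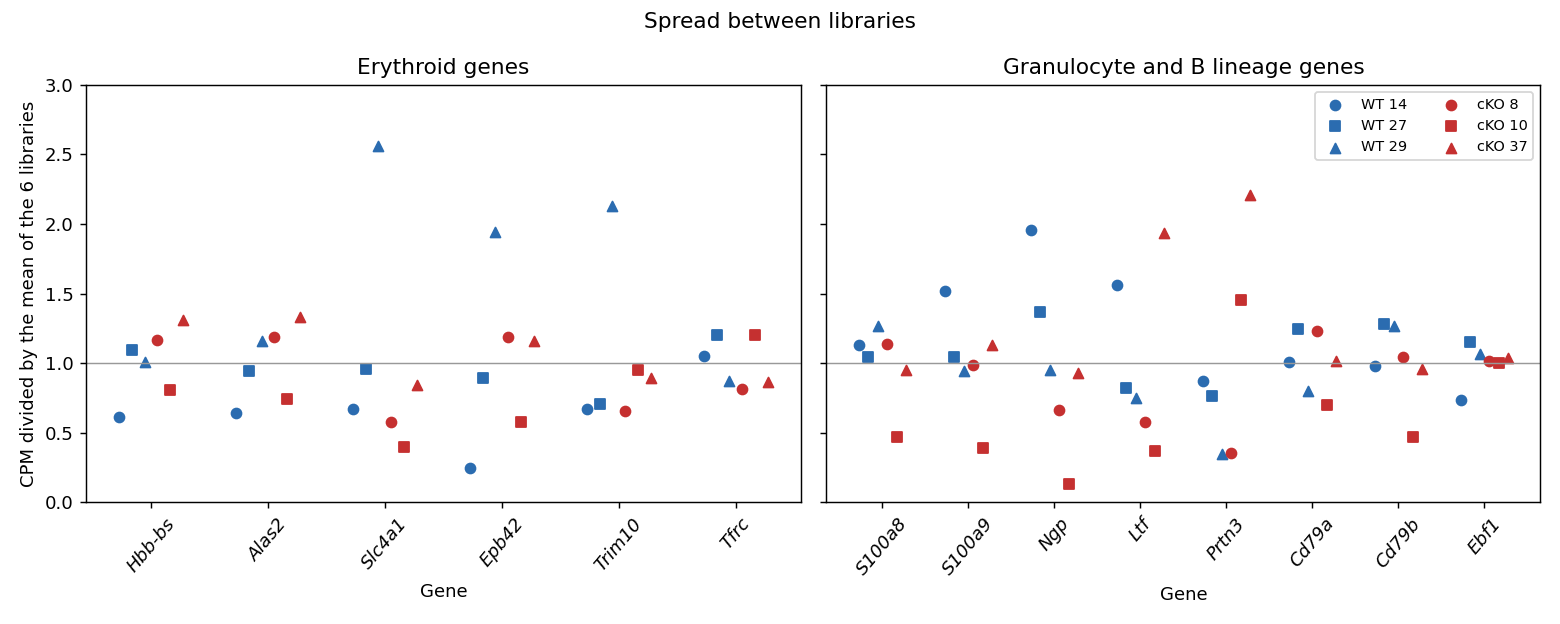
CPM of 14 genes in each library divided by the gene's mean over the 6 libraries, on a linear axis; blue symbols are WT and red symbols cKO, with the shapes naming the libraries. WT 29 is at the top for Slc4a1, Epb42 and Trim10, cKO 37 for Hbb-bs and Alas2, and cKO 10 is lowest for S100a8, S100a9, Ngp, Ltf, Cd79a and Cd79b.

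The remaining erythroid members were scarce. Klf1, the erythroid Kruppel-like factor, had 4, 10 and 5 fragments in WT and 7, 5 and 8 in cKO (log2 fold change 0.28 ± 0.51, edgeR adjusted p = 0.76). Car1, a carbonic anhydrase of red cells that is also made in the gut, had 2, 6 and 15 fragments in WT and 14, 4 and 9 in cKO (0.53 ± 0.63, adjusted p = 0.617). The groups overlapped for both genes. Hemgn, a nuclear protein of blood progenitors, had 1, 1 and 5 fragments in WT and 1, 0 and 0 in cKO, too few to be tested. Counted without Tfrc, Alas2 and Sptb, the erythroid members summed to 1.01, 1.75 and 3.37 CPM in WT and 1.4, 0.838 and 1.4 CPM in cKO, with WT 29 highest. Slc4a1 made up most of the WT 29 value: without it the sums were 0.355, 0.802 and 0.848 CPM in WT and 0.835, 0.451 and 0.572 CPM in cKO, with WT 14 lowest and WT 29 close to WT 27 and cKO 8.

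Among the granulocyte genes, the calgranulins S100a8 and S100a9, calcium-binding partners of neutrophil cytoplasm that are also made by monocytes, had the highest per-length levels. They lie 22599 bases apart on chromosome 3. S100a8 measured 0.465, 0.429 and 0.522 CPM in WT and 0.467, 0.193 and 0.39 CPM in cKO. S100a9 measured 0.875, 0.601 and 0.544 CPM in WT and 0.567, 0.226 and 0.65 CPM in cKO. For both, cKO 10 lay apart at the bottom while cKO 8 and cKO 37 lay among or close to the WT values. The log2 fold changes were -0.43 ± 0.37 and -0.47 ± 0.39 (edgeR adjusted p = 0.483 and 0.467), and without cKO 10 they were -0.15 and -0.14.

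Camp, Ngp and Ltf, genes of granules that form late in neutrophil maturation, lie on chromosome 9, 570352 and 596280 bases apart. Ngp, neutrophilic granule protein (110419808 to 110423012), had 18, 12 and 11 fragments in WT and 5, 1 and 9 in cKO, or 0.492, 0.344 and 0.239 CPM against 0.167, 0.0322 and 0.234 CPM. The groups did not overlap, but WT 29 and cKO 37 were almost equal. Its log2 fold change of -1.25 ± 0.56 did not pass (edgeR adjusted p = 0.163, unadjusted p = 0.0454), and without cKO 10 it was -0.81. Camp, the cathelicidin antimicrobial peptide, had 8, 6 and 7 fragments in WT and 0, 2 and 6 in cKO (-1.18 ± 0.72, adjusted p = 0.308). Ltf, lactoferrin, had 10, 5 and 6 fragments in WT and 3, 2 and 13 in cKO (-0.051 ± 0.62, adjusted p = 0.968), with the highest value in a cKO library, and it changed sign when WT 14, cKO 8 or cKO 10 was left out. The order of the libraries differed between these 3 neighbours: cKO 37 was highest for Ltf and in the middle for Ngp and Camp.

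Upstream of the granulocyte genes, TTGCNNAA, the core of the motif read by C/EBP factors, was found in 5 of the 12 with a RefSeq promoter (Fcnb, Lcn2, Ltf, Ngp and S100a9), against 9.6% of all promoters. Ngp and Ltf are shown because they are the tested pair of this granule group with a match, in capitals, over the 120 bases before the start (chr9:110419688-110419807 and chr9:111019172-111019291, plus strand):
Ngp: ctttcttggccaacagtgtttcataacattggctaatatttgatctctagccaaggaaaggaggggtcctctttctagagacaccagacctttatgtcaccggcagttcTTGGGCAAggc
Ltf: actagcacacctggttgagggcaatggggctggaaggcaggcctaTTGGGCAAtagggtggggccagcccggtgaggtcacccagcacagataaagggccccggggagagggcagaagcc
Both windows hold the same 8 letters, although the levels of the 2 genes differed in order over the libraries. A match is a string of letters and does not show that a factor binds.

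Primary granule genes of early granulocyte precursors were lower still, with an exception. Mpo, myeloperoxidase, had 7, 3 and 8 fragments in WT and 4, 5 and 8 in cKO (log2 fold change 0.16 ± 0.49, edgeR adjusted p = 0.864). Part of its exons, 512 of 3424 bases, lies over an antisense gene. Prtn3, proteinase 3, had 12, 10 and 6 fragments in WT and 4, 17 and 32 in cKO, and so held both the lowest and the highest value in cKO. Its log2 fold change was 1.07 ± 0.59 (95% interval -0.26 to 2.39, edgeR adjusted p = 0.271), or 0.48 without cKO 37. Elane, neutrophil elastase, starts 3140 bases downstream of Prtn3 and had 2 fragments in all, and Ctsg, cathepsin G, had 4, although the 3 proteases belong to the same granule. Coding sequences of Elane and Prtn3 were 59.1% identical with a longest shared run of 17 bases, and those of Elane and Ctsg 51.3% with a run of 9. An entry of the table for Bc1 spans both Prtn3 and Elane.

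The 4 other granulocyte members were at or near 0. Lcn2, lipocalin 2, had 1, 2 and 9 fragments in WT and 2, 2 and 0 in cKO. Fcnb, ficolin B, had 3, 3 and 1 fragments in WT and 0 in each cKO library. Pooled over each group this was 0.0596 CPM in WT (95% exact Poisson interval 0.024 to 0.123) and 0 in cKO (upper limit 0.0371 CPM), and the fit without a low-count filter did not call it (edgeR adjusted p = 0.112). Cebpe, the factor of late granulocyte maturation, had 1 fragment in WT and 2 in cKO. Ms4a3, a membrane protein of granulocyte precursors, had 0 of both, which allows up to 0.0652 to 0.1 CPM per library. Elane and Ctsg, above, complete the untested granulocyte genes.

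Over the 13 granulocyte members the summed level was 3.01, 2.2 and 2.15 CPM in WT and 1.64, 1.39 and 2.91 CPM in cKO. The cKO 37 library lay above WT 27 and WT 29, so the groups overlapped. Of the 8 with at least 10 fragments over the 6 libraries, cKO 10 was lowest in 4 and highest in 0.

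In the B lineage group, Ebf1 (chromosome 11, 44618134 to 45005172), an early B cell factor, was well counted. It measured 16.9, 26.6 and 24.5 CPM in WT and 23.3, 23.1 and 23.9 CPM in cKO, with the 3 cKO libraries inside the WT range. Means were 22.7 ± 5.09 and 23.4 ± 0.432 CPM (SD, n = 3 per group), and the log2 fold change was 0.046 ± 0.15 (95% interval -0.31 to 0.40, edgeR adjusted p = 0.873). Per length, Ebf1 stood at 7.68 RPKM, while Pax5, which follows it in B cell development, stood at 0.0165 RPKM. Dntt, the terminal transferase of early B cells, had 1 fragment in all.

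Cd79a and Cd79b encode the signalling pair of the B cell receptor. Cd79a measured 0.465, 0.573 and 0.37 CPM in WT and 0.567, 0.322 and 0.468 CPM in cKO (log2 fold change -0.043 ± 0.34, edgeR adjusted p = 0.948). Cd79b measured 0.875, 1.15 and 1.13 CPM in WT and 0.935, 0.419 and 0.858 CPM in cKO (-0.51 ± 0.31, adjusted p = 0.306). For both, cKO 10 was lowest, and the groups overlapped. Without cKO 10 the log2 fold change of Cd79b was -0.24 and that of Cd79a was 0.14.

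The genes of immunoglobulin rearrangement were at the edge of detection. Rag1 had 8, 3 and 4 fragments in WT and 9, 6 and 11 in cKO, or 0.219, 0.0859 and 0.087 CPM against 0.3, 0.193 and 0.286 CPM, with WT 14 above cKO 10. Its log2 fold change was 1.0 ± 0.50 (95% interval -0.095 to 2.10, edgeR adjusted p = 0.213). Its partner Rag2, whose entry ends 5724 bases away and shares bases with B230118H07Rik, had 2 fragments in WT and 4 in cKO. Rag1 also shares 80 of its 6608 exon bases with B230118H07Rik, on the same strand. Vpreb1 and Igll1, the surrogate light chain of pre-B cells, 4416 bases apart on chromosome 16, had 4 and 1 fragments in WT and 2 and 1 in cKO. Il7r, the interleukin 7 receptor, which T cells also carry, had 2, 2 and 4 fragments in WT and 5, 2 and 11 in cKO, and it was too scarce for the test. CCCNNGGG, the core of the motif of EBF factors, was upstream of 1 of 7 B lineage genes, Igll1, against 11.8% of all promoters.

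Receptors and partners of the members did not pass either. Epor, the erythropoietin receptor, was at 0.050 ± 0.16 (log2 fold change, edgeR adjusted p = 0.869). Csf3r, the receptor for granulocyte colony-stimulating factor, was at -0.24 ± 0.17 (edgeR adjusted p = 0.365). Gfi1, a transcription factor of the granulocyte lineage, was at -0.097 ± 0.20 (edgeR adjusted p = 0.788). Among the ligands and adhesion genes of the marrow niche, 11 of 13 were tested, with 1 higher and 1 lower, against 5.96% and 6.45% of all tested genes. Cxcl12, the chemokine that holds progenitors and B cell precursors in marrow, fell by 0.33 ± 0.093 on the log2 scale (edgeR adjusted p = 0.0425), and Vcam1, an adhesion molecule, rose by 0.30 ± 0.078 (adjusted p = 0.0316). Both calls were lost when any of WT 27, WT 29, cKO 8, cKO 10 or cKO 37 was left out, and that of Cxcl12 also with upper-quartile scaling; the adjusted p then reached up to 0.128 for Cxcl12 and 0.124 for Vcam1 without 1 library. Il7 (0.33 ± 0.34), Kitl, the stem cell factor (-0.025 ± 0.097), and Csf3 (-0.0025 ± 0.68) did not pass (edgeR adjusted p = 0.564, 0.893 and 0.999), and Epo was at 0 in every library.

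Longer lists of the same lineages gave few calls. Of 31 further erythroid genes tested, 0 were higher and 3 lower in cKO: Cpox (-0.35 ± 0.077), Slc25a38 (-0.41 ± 0.098) and Uros (-0.43 ± 0.12), with edgeR adjusted p = 0.0173, 0.0216 and 0.0352. These serve heme synthesis, which all cells carry out: Cpox and Uros are enzymes of the pathway and Slc25a38 is a mitochondrial carrier. Leaving out 1 library ended the call of Cpox in 2 of 6 fits (WT 29, cKO 8), of Slc25a38 in 4 (WT 14, WT 27, WT 29, cKO 8) and of Uros in 4 (WT 14, WT 29, cKO 8, cKO 10), with adjusted p up to 0.079, 0.0698 and 0.135. Of 16 further granulocyte genes, 1 was higher, Abca13 with 32 fragments in all (1.81 ± 0.54, adjusted p = 0.0488), and 1 lower, Clec12a, which macrophages also carry (-0.45 ± 0.12, adjusted p = 0.0316). The Abca13 call was lost in each of the 6 fits without 1 library and without a low-count filter, and the Clec12a call in 5 of 6 (kept without WT 29) and with limma voom, with adjusted p up to 0.135 and 0.12 without 1 library. Bpi of the same list had 29, 6 and 18 fragments in WT and 4, 4 and 1 in cKO. It did not pass (-2.27 ± 0.68, edgeR adjusted p = 0.0528). Of the 16, 8 had a log2 fold change above 0. Of 17 further B lineage genes, 0 passed in edgeR, and the smallest adjusted p was 0.0726, for Arpp21. In edgeR 3 of the 17 (Arpp21, Btk and Bach2) were at an unadjusted p under 0.05, against 29.1% of all tested genes. Shares of these lists stand against the 5.96% higher and 6.45% lower of all tested genes.

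By list median, genes of macrophages, osteoclasts and vessels stood far above the 3 marker lists, although single genes such as Hbb-bs (43.2 RPKM) were high. The median per-length level was 0.136 RPKM for the erythroid members, 0.0476 RPKM for the granulocyte members and 0.0281 RPKM for the B lineage members. The erythroid median includes the overlapping entries Hba-a1 and Hba-a2. For the further genes of these lineages the median was 0.466 RPKM (erythroid), 0.0996 RPKM (granulocyte) and 0.0728 RPKM (B lineage). It was 6.8 RPKM for monocyte and macrophage genes, 14.9 RPKM for osteoclast genes, 5.66 RPKM for genes of all leukocytes and 15.1 RPKM for endothelial genes, against 130 RPKM for osteoblast genes. T and NK cell genes (0.0536 RPKM), megakaryocyte genes (0.126 RPKM) and skeletal muscle genes (0.156 RPKM) lay within the range of the members' medians or close to it.

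**Figure D4:**
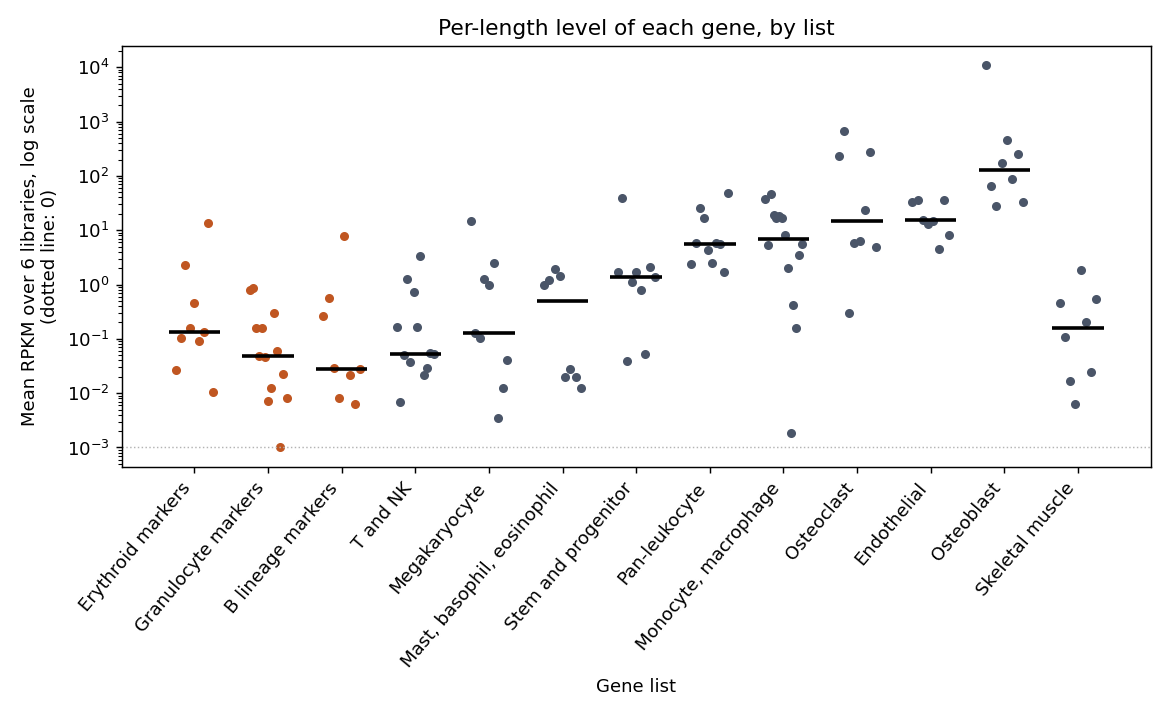
Mean RPKM over the 6 libraries of each gene, by list, on a log axis; dots are genes, bars are list medians, and dots on the dotted line are genes at 0. The 3 marker lists in orange have medians under 0.2 RPKM, and the macrophage, osteoclast, endothelial and osteoblast lists have medians above 6 RPKM.

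Genes of all leukocytes summed to 281 to 341 CPM in WT and 237 to 262 CPM in cKO, with 2 of 10 tested lower (Laptm5 and Itgb2) and 0 higher, against 6.45% and 5.96% of all tested genes. Without Laptm5 the sums overlapped, at 198, 223 and 192 CPM in WT and 171, 179 and 199 CPM in cKO. Osteoclast genes summed to 2990 to 4270 CPM in WT and 2420 to 3060 CPM in cKO, with 1 of 8 lower (Acp5), and macrophage genes to 494 to 604 and 428 to 496 CPM, with 1 of 13 lower (Csf1r). The osteoclast and macrophage sums overlapped between the groups. Without cKO 8 each of these 4 calls was lost, as it was without cKO 37 for Laptm5, Acp5 and Csf1r, without WT 29 for Laptm5 and without WT 27 or cKO 10 for Itgb2 (adjusted p up to 0.0957). Mast cell, basophil and eosinophil genes varied most from library to library, from 3.32 CPM in cKO 10 to 15.4 CPM in cKO 37, with 4 tested, 0 called and 0 at an unadjusted p under 0.05 in edgeR. Stem and progenitor genes had 1 of 9 higher (Hlf) and T and NK cell and megakaryocyte genes 0 of 6 and 0 of 5, with 0 and 2 at an unadjusted p under 0.05. Endothelial genes had 1 of 8 lower (Cldn5), osteoblast genes 1 of 8 lower (Sp7, which both labels name as Osx) and skeletal muscle genes 0 of 5, with 0 at an unadjusted p under 0.05. Calls of Hlf, Cldn5 and Sp7 were each lost without WT 29 or cKO 8 and, for Hlf and Sp7, without cKO 10; that of Hlf was also lost without WT 14 and that of Sp7 without cKO 37 (adjusted p up to 0.0795). At an unadjusted p under 0.05 in edgeR were 6 of 10 genes of all leukocytes, 5 of 8 osteoclast and 2 of 13 macrophage genes. So were 4 of 9 stem and progenitor, 2 of 8 endothelial and 3 of 8 osteoblast genes, against 29.1% of all tested genes. Fold changes above 0 numbered 0 of 8 for osteoclast, 2 of 10 for leukocyte and 5 of 13 for macrophage genes, against 8247 of 16089. The part of these cells in the members' values was not tested.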

How the data were processed

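The deposited file holds read counts and RPKM values per gene with mm10 positions. Per the submitters' processing notes, the authors used bcl2fastq, TopHat2 2.0.6 and HTSeq. Which annotation was counted, and whether strand was used, is not given in the sources used here. RPKM values as deposited by the authors were used only to compare genes. No column belongs to another sample (0 such columns).

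Members were matched by symbol or, for Sptb, by a RefSeq synonym and position. Counts as deposited were fitted in R 4.3.3 with edgeR 4.0.16 (filterByExpr with a minimum count of 10, TMM factors 0.9519 to 1.072, robust quasi-likelihood F test, Benjamini-Hochberg over 16089 genes, threshold 0.05) on all 6 libraries. CPM is scaled by TMM. Alternatives were RLE and upper-quartile scaling, no filter, a mean CPM of at least 1, DESeq2 1.42.0, limma 3.58.1 voom, counts divided by 2, removal of globin genes and Rn45s, and each library left out. The steps were tested on simulated data. Libraries of a group differed by more than counting noise (chi-square per degree of freedom 26.4 to 60), so none was the same library deposited again; repeat preparations of 1 animal would not be told from this.

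All members are named, with partners and the genes of other lists past the threshold. Members and lists were chosen with earlier results of these data known. Hbb-bs, Hbb-b1, Hbb-b2, Epb42, Trim10 and Bpi were added after their values were seen. Some items are withheld and not reported here. Intervals and floors cover counting error only.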

Additional observations from a re-analysis of the deposited data

How the results depend on the processing

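No member passed under any of the 14 alternatives run. The smallest adjusted p of a member was 0.0532 (Slc4a1 in DESeq2), and the smallest without 1 library was 0.0813. Halved counts left 10 members tested, a mean CPM of at least 1 left 4, and no filter gave 29. Over the whole table, leaving out 1 library gave 291 to 932 genes higher and 295 to 1053 lower, against 959 and 1038, with fewer libraries in each fit, and upper-quartile scaling gave 1191 higher and 764 lower (median of all genes 0.035 against 0.0074 on the log2 scale). Leaving out 1 library turned the sign of 5 uncalled members: Car1 (-0.037 to 1.27), Ltf (-1.13 to 0.35), Mpo (-0.11 to 0.34), Cd79a (-0.23 to 0.14) and Ebf1 (-0.13 to 0.17), in 9 fits in all. The same held for Epor (-0.043 to 0.13), Gfi1 (-0.22 to 0.061), Kitl (-0.12 to 0.052) and Csf3 (-0.35 to 1.003). Kitl and Csf3 also turned with upper-quartile scaling (0.0026 and 0.026) and Csf3 with limma voom (0.24). The cause was not tested. Calls for other genes that leaving out 1 library ended are named in the report. No paired analysis was possible because the groups share no numbers in their labels. Of the 30 members, 12 were too scarce to test.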
